A study of Mus musculus with 15 samples.

Results

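The genes of the Wnt pathway that act outside the cell, at its surface and at the end of the signal were followed in tumours of mice that develop small cell lung cancer. They were all genes named Wnt, Fzd, Sfrp or Dkk with a number, together with Lrp5, Lrp6, Axin2, Lef1, Tcf7, Tcf7l1, Tcf7l2, Wif1, Rspo1, Rspo2, Lgr5 and Lgr6. Of 49 such genes 48 were measured among 18193 genes on the array, and Tcf7 was not analysed here. Each gene was read from its brightest probe set, judged by the mean of the 15 arrays. The 48 comprised 19 ligands, 10 Frizzled receptors, 2 co-receptors, 4 R-spondin and Lgr genes, 9 secreted antagonists and 4 genes of the nuclear response.

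Wnt proteins are secreted lipid-modified ligands that bind Frizzled receptors and the co-receptors Lrp5 and Lrp6. Binding stops the destruction of beta-catenin, which enters the nucleus and acts with TCF/LEF factors on target genes such as Axin2, itself a brake on the pathway. Some ligands, among them Wnt5a and Wnt11, act mainly without beta-catenin, through cell polarity and calcium. R-spondins strengthen the signal through Lgr receptors, whereas Sfrp proteins and Wif1 bind ligands and Dkk1 blocks the co-receptors. In the lung Wnt2 made by mesenchyme takes part in forming the organ, and Wnt signals maintain alveolar type 2 cells in the adult.

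RNA from 15 samples was hybridised to Affymetrix mouse arrays. The 10 Rb/p53 tumours, with Rb Δ/Δ and p53 Δ/Δ, were collected 8 to 12 months after an adenovirus with Cre recombinase was dripped into the nose of the mice. The 3 Rb/p53/p130 tumours, which carry p130 Δ/Δ in addition, were collected at 6 months. The 2 normal lungs came from wild-type adult animals without tumours. Genotype and time after infection cannot be told apart. The sources used here do not give the promoter that drives Cre, the cells it reached, the strain or the number of mice behind each group. Any p-value therefore speaks of the spread among these arrays, which may be technical. Tumours are numbered as in the labels, 1 to 10 and 11 to 13.

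Levels are log2 values that are nearly equal in distribution between arrays (array medians 6.58 to 6.68). The low end means 5.05 or less, a limit set by the array with the largest lower quartile, and a signal there is not shown to be above background. The number of arrays limits the precision, above all that of normal lung. Rb1 averaged 10.20 ± 0.20 in the lungs (SD, n = 2), and the tumours labelled as lacking it stood higher, at 11.50 ± 0.41 (n = 10) without and 11.76 ± 0.12 (n = 3) with the p130 deletion. Rbl2, which encodes p130, averaged 9.57 ± 0.01, 8.66 ± 0.42 and 8.61 ± 0.21 in the same order, with nearly the same mean in both tumour genotypes. Whether these probes fall inside the deleted exons is not known here, so the values check no label. Neuroendocrine markers bore out the tumour labels, since 15 of 17 rose in each genotype against normal lung. Their mean level was 10.36 to 11.29 in Rb/p53 tumours, 10.68 to 10.96 in Rb/p53/p130 tumours and 5.33 to 5.73 in normal lung.

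Many markers of the endothelial, fibroblast and alveolar cells of the lung were lower in the tumours. In Rb/p53 tumours 17 of 18 endothelial markers fell, as did 12 of 20 fibroblast and smooth muscle markers, 12 of 12 alveolar type 1 markers and 9 of 11 alveolar type 2 markers, and in Rb/p53/p130 tumours 17, 12, 10 and 6 of these lists fell. The mean of the endothelial list was 11.28 to 11.85 in normal lung, 6.93 to 8.93 in Rb/p53 tumours and 7.64 to 8.00 in Rb/p53/p130 tumours. That of the fibroblast and smooth muscle list was 10.74 to 11.01, 8.49 to 9.44 and 8.64 to 8.70, and that of the alveolar type 1 list 12.13 to 12.49, 8.25 to 10.22 and 9.22 to 9.43. Markers of macrophages and dendritic cells went both ways. Of 14, 4 rose and 5 fell in Rb/p53 tumours, and 2 rose and 6 fell in Rb/p53/p130 tumours. Their mean was 8.98 to 9.79 in normal lung, 8.14 to 9.57 in Rb/p53 tumours and 7.99 to 8.94 in Rb/p53/p130 tumours. No endothelial, fibroblast or alveolar marker lay at the low end on every array. In bulk samples fewer cells of a type and less RNA per cell cannot be told apart. The part that these lists have in the falls of Wnt genes below was not tested.

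More of the 48 genes fell than rose in the tumours, and most were not called. In Rb/p53 tumours 19 of 48 were lower than in normal lung and 4 higher by limma (adjusted p under 0.05), which is 39.6% and 8.33%, while over all genes 20.5% were lower and 18.3% higher, or 38.8% in either direction. In Rb/p53/p130 tumours 14 of 48 were lower (29.2%) and 0 higher by limma, and over all genes 15.6% were lower and 15.3% higher, together 30.9%. There 21 of the 48 (43.8%) had an unadjusted p under 0.05, near the 41.5% of all genes. The median log2 difference of the 48 was -0.36 and -0.31, against -0.02 over all genes in both comparisons. The samples of the 2 groups did not overlap for 23 of 48 genes in Rb/p53 tumours (38.4% of all genes) and for 32 of 48 in Rb/p53/p130 tumours (66% of all genes). All 14 genes that fell in Rb/p53/p130 tumours also fell in Rb/p53 tumours, but the comparisons share the 2 normal lungs.

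Several of these calls rested on the pair of lungs. Without lung 1, 14 of 23 calls in Rb/p53 tumours remained, and without lung 2, 13 of 23. RNA integrity, read as the level of the 3' minus the 5' control probe set of Gapdh, was 0.72 and 0.88 for the lungs and -0.07 to 0.36 for the tumours. With it as a covariate, Wnt2 and Fzd2 alone of the 23 kept their call; its part in the other falls and rises was not tested.

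**Figure D1:**
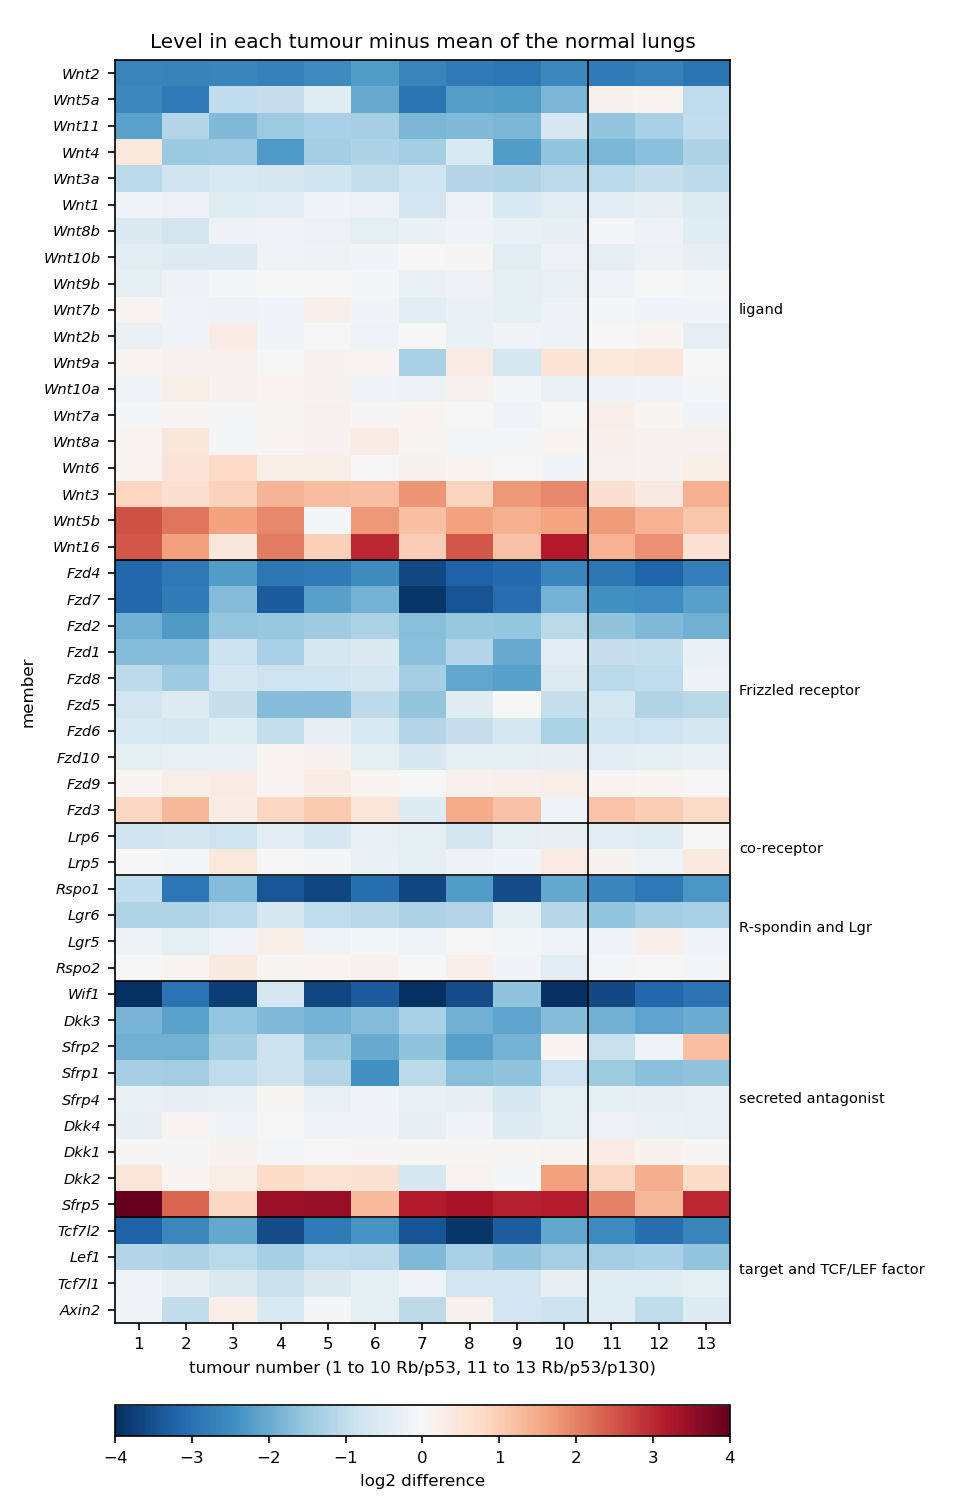
Colour gives the log2 level of each of the 48 genes (rows, grouped by role) in each tumour (columns) minus the mean of the 2 normal lungs, blue for lower and red for higher, with differences beyond 4 shown in the end colours. Wnt2, Fzd4, Fzd7, Rspo1, Wif1 and Tcf7l2 are blue in nearly all tumours, and Sfrp5, Wnt16, Wnt5b and Wnt3 are the reddest rows, with weaker red in most tumours for Fzd3 and Dkk2.

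Among the ligands 4 of 19 fell (21.1%) and 3 rose (15.8%) in Rb/p53 tumours, and 3 fell (15.8%) in Rb/p53/p130 tumours, shares near those of all genes (20.5%, 18.3% and 15.6%). Wnt2, a mesenchymal ligand of lung formation, stood at 7.63 and 8.27 in the normal lungs, at 5.06 to 5.73 (median 5.32) in the Rb/p53 tumours and at 5.17, 5.25 and 5.03 in the Rb/p53/p130 tumours. No tumour came near a lung, and the tumours lay close to the low end, with tumour 13 below it. Wnt2 was 6.18-fold lower in Rb/p53 tumours (log2 difference -2.63 ± 0.16, SE, limma adjusted p = 2.68e-08) and 6.98-fold lower in Rb/p53/p130 tumours (-2.80 ± 0.19, adjusted p = 1.19e-07).

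Wnt11, a ligand of cell polarity, was at 8.38 and 8.17 in normal lung, at 6.14 to 7.65 (median 6.68) in Rb/p53 tumours and at 6.69, 6.99 and 7.30 in Rb/p53/p130 tumours. All 13 tumours lay below both lungs, and the gene was 2.86-fold lower in Rb/p53 tumours (-1.52 ± 0.29, limma adjusted p = 0.000928) and 2.44-fold lower in Rb/p53/p130 tumours (-1.29 ± 0.34, adjusted p = 0.0123). The latter call was lost without lung 1 or tumour 11, at log2 differences from -1.44 to -1.13 over all arrays left out. Wnt3a, a strong activator of beta-catenin, was at 6.59 and 6.55 in normal lung, 5.35 to 5.95 (median 5.68) in Rb/p53 tumours and 5.48, 5.61 and 5.53 in Rb/p53/p130 tumours. Its fall was small but met no overlap, 1.89-fold in Rb/p53 tumours (-0.92 ± 0.15, limma adjusted p = 0.000214) and 2.04-fold in Rb/p53/p130 tumours (-1.03 ± 0.17, adjusted p = 0.000471).

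Wnt5a, a ligand of the pathway arm without beta-catenin, was at 8.81 and 8.37 in the normal lungs and at 5.66 to 8.09 (median 6.47) in the Rb/p53 tumours. In the Rb/p53/p130 tumours it was at 8.76, 8.70 and 7.58, so tumours 11 and 12 reached the level of the lungs. It was 3.75-fold lower in Rb/p53 tumours (-1.91 ± 0.55, limma adjusted p = 0.0158), a call lost without either lung (-1.69 to -2.13 over all arrays left out). The log2 difference of Rb/p53/p130 tumours from lung was -0.25 ± 0.65 (adjusted p = 0.842), with a 95% interval from -1.64 to 1.15.

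The ligands that rose were Wnt16, Wnt5b and Wnt3. Wnt16, which is best known from bone and from lymphoid leukaemia, was at 5.48 and 6.24 in normal lung and at 6.30 to 9.04 (median 7.70) in Rb/p53 tumours, all of them above the lungs. It was 3.59-fold higher there (1.84 ± 0.61, limma adjusted p = 0.0322). Without lung 1 or lung 2 the call was lost (1.47 to 2.22 over all arrays left out), and with the Gapdh covariate the difference was -0.58. It stood at 7.23, 7.68 and 6.45 in Rb/p53/p130 tumours (log2 difference 1.26 ± 0.72, adjusted p = 0.237).

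Wnt5b, a relative of Wnt5a, was at 5.92 and 5.43 in normal lung and at 5.64 to 8.23 (median 7.28) in Rb/p53 tumours. Tumour 5 held the lowest value and lay between the lungs, while the other 9 lay at 6.87 or more. The gene was 2.97-fold higher in Rb/p53 tumours (1.57 ± 0.44, limma adjusted p = 0.0120), a call lost without lung 2 (1.32 to 1.82 over all arrays left out). Its levels in Rb/p53/p130 tumours were 7.38, 7.07 and 6.77 (1.40 ± 0.51, adjusted p = 0.0606). Another probe set of Wnt5b averaged 5.27 ± 0.001 (SD, n = 2) in normal lung. In Rb/p53 tumours it averaged 6.80 ± 0.55 (SD, n = 10), and in Rb/p53/p130 tumours 7.04 ± 0.23 (SD, n = 3). Wnt3 was at 3.56 and 4.01 in normal lung, 4.45 to 5.69 (median 5.00) in Rb/p53 tumours and 4.41, 4.15 and 5.22 in Rb/p53/p130 tumours. All tumours lay above the lungs, and it was called in Rb/p53 tumours (1.25 ± 0.32, limma adjusted p = 0.00772) but not in Rb/p53/p130 tumours (0.81 ± 0.38, adjusted p = 0.143). Its Rb/p53 and lung means of 5.04 and 3.78 are both at the low end, so no fold is given, and the call was lost without lung 1 (1.03 to 1.48 over all arrays left out).

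The stretches before the start of Wnt5b and of Sfrp5, the antagonist that rose, are shown because they were the promoters of rising genes that held a searched motif. These are the 250 bases upstream of a RefSeq start on GRCm38.p6, printed 5′ to 3′ on the gene's strand. Capitals mark the letters searched for: for E2F factors, which the deleted Rb and p130 restrain, TTTCCCGC, TTTCGCGC, TTTGCCGC or TTTGGCGC, and for TCF/LEF factors CTTTG followed by AA, AT, TA or TT, on either strand.
Sfrp5 (chr19:42202253-42202502, minus strand): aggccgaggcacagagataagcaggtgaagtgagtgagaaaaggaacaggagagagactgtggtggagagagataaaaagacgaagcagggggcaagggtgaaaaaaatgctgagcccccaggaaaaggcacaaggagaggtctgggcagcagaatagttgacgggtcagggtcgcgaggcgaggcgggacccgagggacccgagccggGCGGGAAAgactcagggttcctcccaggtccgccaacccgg
Wnt5b (chr6:119449387-119449636, minus strand): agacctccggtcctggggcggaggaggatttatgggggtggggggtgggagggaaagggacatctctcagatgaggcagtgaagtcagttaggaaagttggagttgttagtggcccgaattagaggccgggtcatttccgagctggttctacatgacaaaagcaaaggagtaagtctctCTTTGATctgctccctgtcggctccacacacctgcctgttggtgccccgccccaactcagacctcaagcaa
Sfrp5 held an E2F match on the reverse strand 41 bases before its start, and this Wnt5b start, of 3 listed, a TCF/LEF match 71 bases before it. Of 32 genes of the pathway set with a promoter in the table, 2 held an E2F match and 6 a TCF/LEF match. Over 39 starts of these genes this was 5.13% and 15.4%, where 1.86% and 14.8% of 32851 mouse promoters of the same length held them. The other E2F match was in Wnt11, which fell. By call in Rb/p53 tumours, an E2F match was held by 1 of 4 genes that rose, 1 of 12 that fell and 0 of 16 not called. A TCF/LEF match was held by 1 of the 4, 4 of the 12 and 1 of the 16. In these counts a match at any listed start of a gene sufficed. Lef1, Tcf7l2, Wnt11 and Wnt5b had several starts listed, and no gene without a call had more than 1. The 3 classes of genes thus did not have equal chances of a match. A match is a description of these letters and not a site.

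The other ligands were not called. Wnt4, a ligand of epithelium and kidney, was at 9.37 and 8.89 in normal lung and at 6.88 to 9.56 (median 7.72) in Rb/p53 tumours (-1.31 ± 0.49, limma adjusted p = 0.0535), with tumour 1 above both lungs and the next highest, tumour 8, at 8.53. It was at 7.29, 7.46 and 7.90 in Rb/p53/p130 tumours, below both lungs (-1.58 ± 0.58, adjusted p = 0.0589). Wnt7b, an epithelial ligand of the developing lung, differed by -0.16 ± 0.15 and -0.10 ± 0.17 from lung in the 2 genotypes. Wnt9a, read at 7.71 and 8.04 in normal lung, 6.59 to 8.41 (median 8.01) in Rb/p53 tumours and 8.29, 8.35 and 7.86 in Rb/p53/p130 tumours, differed by -0.05 ± 0.35 and 0.29 ± 0.41, and its groups overlapped. Wnt1, Wnt8a and Wnt10a lay at the low end on all 15 arrays.

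Among the Frizzled receptors called in the tumours, all were lower. In Rb/p53 tumours 6 of 10 were lower and 0 higher, against 20.5% and 18.3% of all genes, with a median log2 difference of -1.07. In Rb/p53/p130 tumours 4 of 10 were lower and 0 higher, against 15.6% and 15.3% of all genes. Fzd4, the receptor for Norrin in vessels, was at 10.00 and 10.93 in normal lung, 6.86 to 8.22 (median 7.58) in Rb/p53 tumours and 7.57, 7.27 and 7.73 in Rb/p53/p130 tumours. No tumour overlapped the lungs. Fzd4 was 7.46-fold lower (-2.90 ± 0.29, limma adjusted p = 2.58e-06) and 7.67-fold lower (-2.94 ± 0.34, adjusted p = 1.66e-05) in the 2 genotypes.

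Fzd7, a receptor of stem and progenitor cells, was at 9.60 and 9.85 in normal lung, 5.84 to 8.00 (median 6.81) in Rb/p53 tumours and 7.30, 7.25 and 7.56 in Rb/p53/p130 tumours. All tumours were below the lungs, and those with Rb and p53 deleted ranged over 2.16 log2 units. The gene was 6.63-fold lower in Rb/p53 tumours (-2.73 ± 0.47, limma adjusted p = 0.000385) and 5.09-fold lower in Rb/p53/p130 tumours (-2.35 ± 0.55, adjusted p = 0.00567). Fzd2 was at 7.80 and 8.05 in normal lung, 5.66 to 6.86 (median 6.39) in Rb/p53 tumours and 6.33, 6.15 and 6.02 in Rb/p53/p130 tumours. Again no tumour overlapped, at 2.99-fold lower (-1.58 ± 0.22, adjusted p = 6.74e-05) and 3.39-fold lower (-1.76 ± 0.26, adjusted p = 0.000161).

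Another 3 receptors had smaller falls. Fzd1 was at 9.55 and 10.12 in normal lung and 7.80 to 9.38 (median 8.60) in Rb/p53 tumours (-1.22 ± 0.37, limma adjusted p = 0.0206), and at 8.92, 8.88 and 9.56 in Rb/p53/p130 tumours (-0.71 ± 0.44, adjusted p = 0.274). Fzd8 was at 7.43 and 7.86 in normal lung, 5.48 to 7.08 (median 6.71) in Rb/p53 tumours (-1.17 ± 0.39, limma adjusted p = 0.0338) and 6.55, 6.62 and 7.45 in Rb/p53/p130 tumours (-0.77 ± 0.46, adjusted p = 0.263). For these 2 genes the Rb/p53 tumours lay below both lungs, tumour 13 overlapped them, and each call was lost without either lung (-1.50 to -0.93 for Fzd1 and -1.38 to -0.95 for Fzd8 over all arrays left out). Fzd6, a receptor of planar polarity, was at 10.60 and 9.87 in normal lung, 8.98 to 9.90 (median 9.56) in Rb/p53 tumours and 9.43, 9.40 and 9.53 in Rb/p53/p130 tumours. It fell by 0.77 ± 0.22 (limma adjusted p = 0.0153) and 0.79 ± 0.26 (adjusted p = 0.0391), with differences from -1.13 to -0.40 and from -1.15 to -0.42 over all arrays left out and calls lost without lung 1 in either genotype and without any of tumours 11, 12 and 13. With the Gapdh covariate its difference was 0.17 and 0.20.

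Fzd3, a receptor of axon growth, was read above the lung mean without a call. It was at 9.15 and 8.55 in normal lung, 8.33 to 10.35 (median 9.68) in Rb/p53 tumours and 10.00, 9.82 and 9.63 in Rb/p53/p130 tumours. Its differences of 0.68 ± 0.42 (limma adjusted p = 0.247) and 0.97 ± 0.49 (adjusted p = 0.181) did not pass the test. Fzd5 was at 9.13 and 9.44 in normal lung and 7.55 to 9.26 (median 8.35) in Rb/p53 tumours (-0.98 ± 0.36, adjusted p = 0.0537), and Fzd9 (0.18 ± 0.10 and 0.06 ± 0.11) and Fzd10 were called in neither genotype.

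Of the co-receptors Lrp6 was at 9.87 and 10.39 in normal lung, 9.31 to 9.82 (median 9.60) in Rb/p53 tumours and 9.70, 9.63 and 10.10 in Rb/p53/p130 tumours. Rb/p53 tumours lay just below the lungs (-0.55 ± 0.18, limma adjusted p = 0.0272), but the call was lost without lung 2 (-0.81 to -0.29 over all arrays left out), and another probe set of Lrp6 gave 0.32 ± 0.21 (adjusted p = 0.284). Lrp5 differed from lung by -0.03 ± 0.18 and 0.12 ± 0.22 in the 2 genotypes.

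Rspo1, an R-spondin made by mesothelial and stromal cells in several organs, was at 9.12 and 8.97 in normal lung, 5.40 to 8.06 (median 6.10) in Rb/p53 tumours and 6.42, 6.20 and 6.73 in Rb/p53/p130 tumours. All tumours were lower than the lungs, and tumour 1 at 8.06 and tumour 3 at 7.32 came nearest. The gene was 6.57-fold lower (-2.72 ± 0.57, limma adjusted p = 0.00197) in Rb/p53 tumours and 6.07-fold lower (-2.60 ± 0.68, adjusted p = 0.0107) in Rb/p53/p130 tumours, the latter call lost without either lung (-2.74 to -2.48 over all arrays left out). With the Gapdh covariate the differences were -0.23 and 0.015. The mean of 7 mesothelial markers, of which 5 fell in each genotype, was 8.87 to 9.03 in normal lung, 5.98 to 7.41 in Rb/p53 tumours and 6.71 to 7.00 in Rb/p53/p130 tumours, and none lay at the low end on every array.

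Lgr6, an R-spondin receptor found on airway smooth muscle, was at 5.94 and 6.67 in normal lung, 5.07 to 5.93 (median 5.18) in Rb/p53 tumours and 4.74, 4.90 and 4.99 in Rb/p53/p130 tumours. The 3 groups did not overlap, although tumour 9 at 5.93 nearly met lung 1. Lgr6 was 2.01-fold lower in Rb/p53 tumours (-1.01 ± 0.22, limma adjusted p = 0.00224), a call lost without lung 2 (-1.38 to -0.64 over all arrays left out), and at least 2.39-fold lower in Rb/p53/p130 tumours (-1.43 ± 0.26, adjusted p = 0.000786). Lgr5, a target and stem cell marker in gut, was near the low end with differences of -0.11 ± 0.14 and -0.02 ± 0.16, and Rspo2, an R-spondin of lung development, was called in neither genotype.

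The secreted antagonists called in Rb/p53 tumours went both ways. There 4 of 9 fell (44.4%) and 1 rose (11.1%), against 20.5% and 18.3% of all genes. In Rb/p53/p130 tumours 3 fell (33.3%) and 0 rose, against 15.6% and 15.3% of all genes. Wif1, which binds Wnt ligands and is itself a target of the pathway, was at 8.51 and 7.81 in normal lung, 3.99 to 7.50 (median 4.58) in Rb/p53 tumours and 4.55, 5.01 and 5.20 in Rb/p53/p130 tumours. Tumours 4 (7.50) and 9 (6.56) stood well above the other 8, whose highest was 5.21, but still below the lungs. The fall was at least 8.64-fold in each genotype (-3.17 ± 0.72, limma adjusted p = 0.00338, and -3.24 ± 0.85, adjusted p = 0.0115). Without lung 1 either call was lost (-3.52 to -2.83 and -3.59 to -2.89 over all arrays left out).

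Dkk3, a divergent Dickkopf protein, was at 8.57 and 9.51 in normal lung, 6.89 to 7.75 (median 7.23) in Rb/p53 tumours and 7.11, 6.93 and 7.06 in Rb/p53/p130 tumours. No tumour overlapped the lungs, and it was 3.49-fold (-1.80 ± 0.22, limma adjusted p = 1.73e-05) and 4.01-fold lower (95% interval of the log2 difference -2.56 to -1.45, adjusted p = 4.32e-05). Sfrp1, a decoy for Wnt ligands, was at 8.21 and 8.54 in normal lung, 5.94 to 7.54 (median 7.13) in Rb/p53 tumours and 6.97, 6.71 and 6.78 in Rb/p53/p130 tumours. All tumours were below the lungs, at 2.54-fold (-1.34 ± 0.31, adjusted p = 0.00354) and 2.94-fold lower (-1.56 ± 0.36, adjusted p = 0.00540), calls that were each lost without lung 2 (-1.51 to -1.18 and -1.73 to -1.39 over all arrays left out).

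Sfrp5, another decoy of this family, had the highest rise of the set. It was at 5.99 and 6.12 in normal lung, 6.87 to 10.28 (median 9.22) in Rb/p53 tumours and 8.03, 7.38 and 9.07 in Rb/p53/p130 tumours. Every tumour was above the lungs, with tumours 3 (6.87) and 6 (7.31) closest to them. Sfrp5 was 7.09-fold higher in Rb/p53 tumours (2.83 ± 0.69, limma adjusted p = 0.00563), a call lost without either lung (2.67 to 3.05 over all arrays left out), and 2.10 ± 0.82 higher on the log2 scale in Rb/p53/p130 tumours (adjusted p = 0.0761). Another probe set of Sfrp5 rose by 0.74 ± 0.24 in Rb/p53 tumours (adjusted p = 0.0264).

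Sfrp2, a decoy made by fibroblasts, was at 6.05 and 7.04 in normal lung, 4.39 to 6.63 (median 4.80) in Rb/p53 tumours and 5.66, 6.38 and 7.74 in Rb/p53/p130 tumours. Tumour 10 held the highest value of the Rb/p53 tumours and overlapped the lungs, as tumours 12 and 13 did. The fall in Rb/p53 tumours (at least 2.83-fold, -1.51 ± 0.54, limma adjusted p = 0.0431) was lost on leaving out either lung or any 1 of 8 of the 10 tumours, at differences from -2.01 to -1.02. In Rb/p53/p130 tumours the difference from lung was 0.05 ± 0.63 (adjusted p = 0.973). Dkk1 and Dkk4 lay at the low end on all arrays, and Sfrp4 was called in neither genotype.

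At the nuclear end Tcf7l2, the main TCF factor of gut epithelium, was at 8.57 and 8.72 in normal lung, 4.76 to 6.60 (median 5.62) in Rb/p53 tumours and 6.15, 5.63 and 5.99 in Rb/p53/p130 tumours. The tumours lay far below the lungs, at 7.61-fold (-2.93 ± 0.41, limma adjusted p = 5.91e-05) and 6.61-fold lower (-2.72 ± 0.48, adjusted p = 0.000663). Lef1, an activator also strong in T cells, was at 7.14 and 7.31 in normal lung, 5.44 to 6.20 (median 5.96) in Rb/p53 tumours and 5.85, 5.93 and 5.64 in Rb/p53/p130 tumours. It too met no overlap, at 2.44-fold (-1.29 ± 0.17, adjusted p = 3.66e-05) and 2.67-fold lower (-1.42 ± 0.20, adjusted p = 9.79e-05). Of 14 T and NK cell markers 7 and 6 fell in the 2 genotypes, with a mean of 7.01 to 7.09 in normal lung, 5.57 to 6.44 in Rb/p53 tumours and 5.90 to 6.18 in Rb/p53/p130 tumours, and none lay at the low end on every array.

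Tcf7l1, mostly a repressor, was at 9.23 and 9.26 in normal lung and 8.35 to 9.11 (median 8.76) in Rb/p53 tumours, all below both lungs, and just missed the test (-0.49 ± 0.18, limma adjusted p = 0.0501). Its levels in Rb/p53/p130 tumours were 8.75, 8.77 and 8.84 (-0.46 ± 0.21, adjusted p = 0.135). Another probe set of Tcf7l1, the brightest if the 3 group means are averaged, was called lower in each genotype (-0.88 ± 0.25, adjusted p = 0.0143, and -0.85 ± 0.30, adjusted p = 0.0488). Quantile normalisation, median centring or leaving out dim probe sets brought Tcf7l1 past the threshold in Rb/p53 tumours. Axin2, the most general target of beta-catenin, did not pass. It was at 8.75 and 8.50 in normal lung, 7.56 to 8.90 (median 8.12) in Rb/p53 tumours and 8.13, 7.61 and 8.12 in Rb/p53/p130 tumours. The Rb/p53 tumours spanned the lungs (-0.44 ± 0.32, adjusted p = 0.336, 95% interval -1.12 to 0.25), and the Rb/p53/p130 tumours lay below them (-0.67 ± 0.38, adjusted p = 0.228, interval -1.47 to 0.14). Fitted on these 3 tumours and the lungs alone, Axin2 was called lower.

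**Figure D2:**
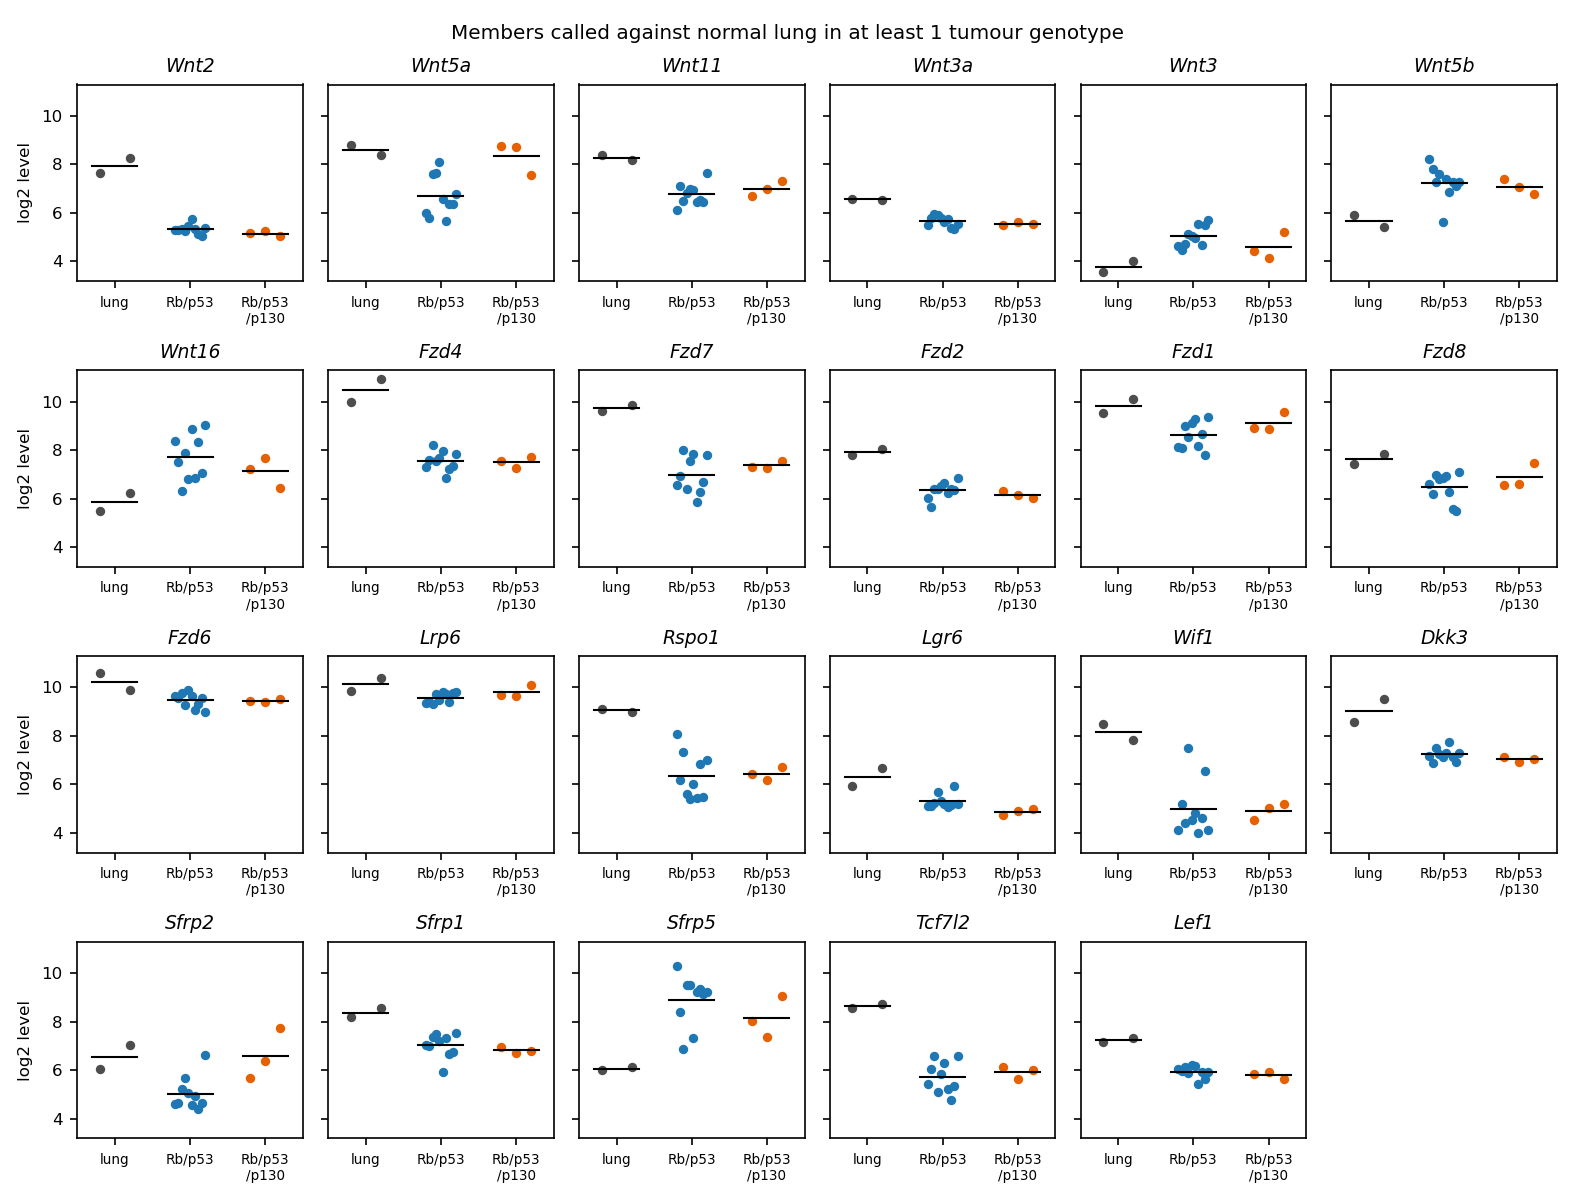
Each panel plots the log2 level of 1 gene in every sample of normal lung (grey, n = 2), Rb/p53 tumours (blue, n = 10) and Rb/p53/p130 tumours (orange, n = 3), with a line at the mean, for the 23 genes called against normal lung in at least 1 genotype. In the Wnt5a and Sfrp2 panels the orange points reach the grey ones, whereas in the Wnt2, Fzd4 and Tcf7l2 panels all tumours lie below the lungs.

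Probe sets of a gene disagreed in places. The brightest probe set of Wnt7a, an epithelial ligand, was flat, at 7.27 ± 0.20 (SD, n = 2) in normal lung, 7.28 ± 0.10 (SD, n = 10) and 7.36 ± 0.18 (SD, n = 3) in the tumours. Another probe set of Wnt7a fell from 8.10 ± 0.03 to 6.20 ± 0.31 and 6.00 ± 0.28, and was called in either genotype (-1.90 ± 0.22, limma adjusted p = 9.38e-06, and -2.10 ± 0.26, adjusted p = 2.46e-05). The less bright probe set of Lgr5 was called lower in Rb/p53 tumours (-0.70 ± 0.18, adjusted p = 0.00694). That of Fzd7 fell less than its brightest, from a mean of 5.99 in normal lung to 5.54 in Rb/p53 and 5.58 in Rb/p53/p130 tumours. Further probe sets of Tcf7l2 averaged 7.88, 6.54 and 4.96 in normal lung and 4.99, 5.14 and 4.72 in Rb/p53 tumours, the last with both means at the low end. Of 25 further probe sets of the genes called in Rb/p53 tumours 15 were called the same way, 9 were not called and 1, of Lrp6, went the other way without a call.

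The rest of the pathway was read through lists chosen with earlier results of these data known, and their counts are to be read against all genes, of which 18.3% rose and 20.5% fell with Rb and p53 deleted and 15.3% and 15.6% with p130 deleted as well. Of genes of the cytoplasmic signal, 8 of 26 rose (30.8%) and 3 fell (11.5%) in Rb/p53 tumours, and 8 rose (30.8%) and 2 fell (7.69%) in Rb/p53/p130 tumours (median log2 difference 0.15 and 0.14, against -0.02 over all genes). The 2 largest rises were in negative regulators. Cxxc4, which binds Dvl, was 2.67 ± 0.33 higher in log2 (limma adjusted p = 2.07e-05) in Rb/p53 tumours and 2.66 ± 0.39 (adjusted p = 0.000141) in Rb/p53/p130 tumours, and Ctnnbip1, which keeps beta-catenin from TCF, 1.96 ± 0.46 (adjusted p = 0.00406) and 1.94 ± 0.54 (adjusted p = 0.0157). The feedback inhibitors Nkd2 (-3.08 ± 0.21 and -3.10 ± 0.25) and Nkd1 (-2.20 ± 0.48 and -1.68 ± 0.57) were the deepest falls.

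Of secretion and surface genes outside the set, 1 of 18 rose (5.56%) and 5 fell (27.8%) in each genotype. Lgr4, the R-spondin receptor of epithelia, rose by 1.81 ± 0.49 (limma adjusted p = 0.0110) and 2.13 ± 0.58 (adjusted p = 0.0141). The glypican Gpc3 (-2.89 ± 0.42 and -3.19 ± 0.50), the receptor-degrading ligase Rnf43 (-2.35 ± 0.29 and -2.02 ± 0.34) and Porcn, the enzyme that puts the lipid on Wnt proteins (-1.73 ± 0.35 and -1.31 ± 0.41), fell. Of nuclear partners of beta-catenin 5 of 18 rose (27.8%) and 4 fell (22.2%) in Rb/p53 tumours and 3 rose (16.7%) and 2 fell (11.1%) in Rb/p53/p130 tumours, with the deacetylase Hdac1 higher by 1.11 ± 0.24 and 1.52 ± 0.28 and the co-activator Bcl9l lower (-1.36 ± 0.27 and -1.47 ± 0.32). The Tle family genes Tle5 (1.27 ± 0.26) and Tle4 (-1.80 ± 0.42) were called in Rb/p53 tumours alone, their difference between genotypes not being called. Smarca4 rose (1.05 ± 0.16 and 0.93 ± 0.18) and Pygo1 fell (-0.54 ± 0.11 and -0.48 ± 0.13) in each genotype.

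In the polarity arm 4 of 24 genes rose (16.7%) and 8 fell (33.3%) in Rb/p53 tumours, and 3 rose (12.5%) and 5 fell (20.8%) in Rb/p53/p130 tumours, of which the rises and the falls in Rb/p53/p130 tumours are near the shares of all genes. Celsr3, a cadherin of neuronal polarity and axon guidance, rose by 4.20 ± 0.21 (limma adjusted p = 3.07e-09) and 3.96 ± 0.24 (adjusted p = 3.97e-08), and Ror2, a receptor for Wnt5a, by 1.74 ± 0.43 (adjusted p = 0.00538) and 2.10 ± 0.50 (adjusted p = 0.00618). Prickle1 (-4.11 ± 0.57 and -4.33 ± 0.67) and Ptk7 (-1.31 ± 0.25 and -1.47 ± 0.30), of the same polarity system, fell, and Prickle2 was lower in Rb/p53 tumours (-2.36 ± 0.81, adjusted p = 0.0373). The list of widely used beta-catenin targets includes Axin2, Dkk1, Lef1, Lgr5 and Wif1 of the set. It also includes Rnf43 and Nkd1, already named above, so its counts partly repeat earlier ones. Of these targets 2 of 24 rose (8.33%) and 8 fell (33.3%) in each genotype. Tnfrsf19 (-3.88 ± 0.42 and -3.79 ± 0.50), Ccnd1 (-2.79 ± 0.47 and -2.59 ± 0.56), Rnf43 and Nkd1 fell, while Ephb3 (0.94 ± 0.22 and 1.33 ± 0.26) and Ascl2 (1.32 ± 0.28 and 1.10 ± 0.33) rose.

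Between the 10 Rb/p53 tumours, 16 of 48 Wnt pathway genes had an SD above 0.5 on the log2 scale, or 33.3%, where 19.4% of all genes did. The median SD was 0.28 for the set and for all genes. Wif1 (SD 1.16), Sfrp5 (1.06), Wnt16 (0.94), Rspo1 (0.93) and Wnt5a (0.84) varied most. Tumour 7 held the lowest value for 15 of the 48 genes, among them Fzd3, Fzd4, Fzd7, Wnt5a, Wnt9a and Axin2, and tumours 3 and 10 the highest for 11 and 10. The same counts were not taken over all genes, so these numbers show no trait of the set. Tumour 7 also had the lowest mean of the neuroendocrine (10.36), endothelial (6.93), alveolar type 1 (8.25), club cell (8.64), mesothelial (5.98), T and NK cell (5.57) and B cell (5.52) lists and the highest mean of the list of dividing cell genes (11.95). It was not the lowest for the other lists. Tumour 8 was lowest for alveolar type 2 (8.89, tumour 7 at 9.10) and for fibroblast and smooth muscle (8.49, tumour 7 at 8.79). It was also lowest for macrophage and dendritic cells (8.14, tumour 7 at 8.66) and cardiac muscle (5.31, tumour 7 at 5.88). Tumour 9 was lowest for ciliated cells (6.91, tumour 7 at 7.18) and thymocytes (5.10, tumour 7 at 5.30). The part of these lists in the low values of tumour 7 was not tested.

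**Figure D3:**
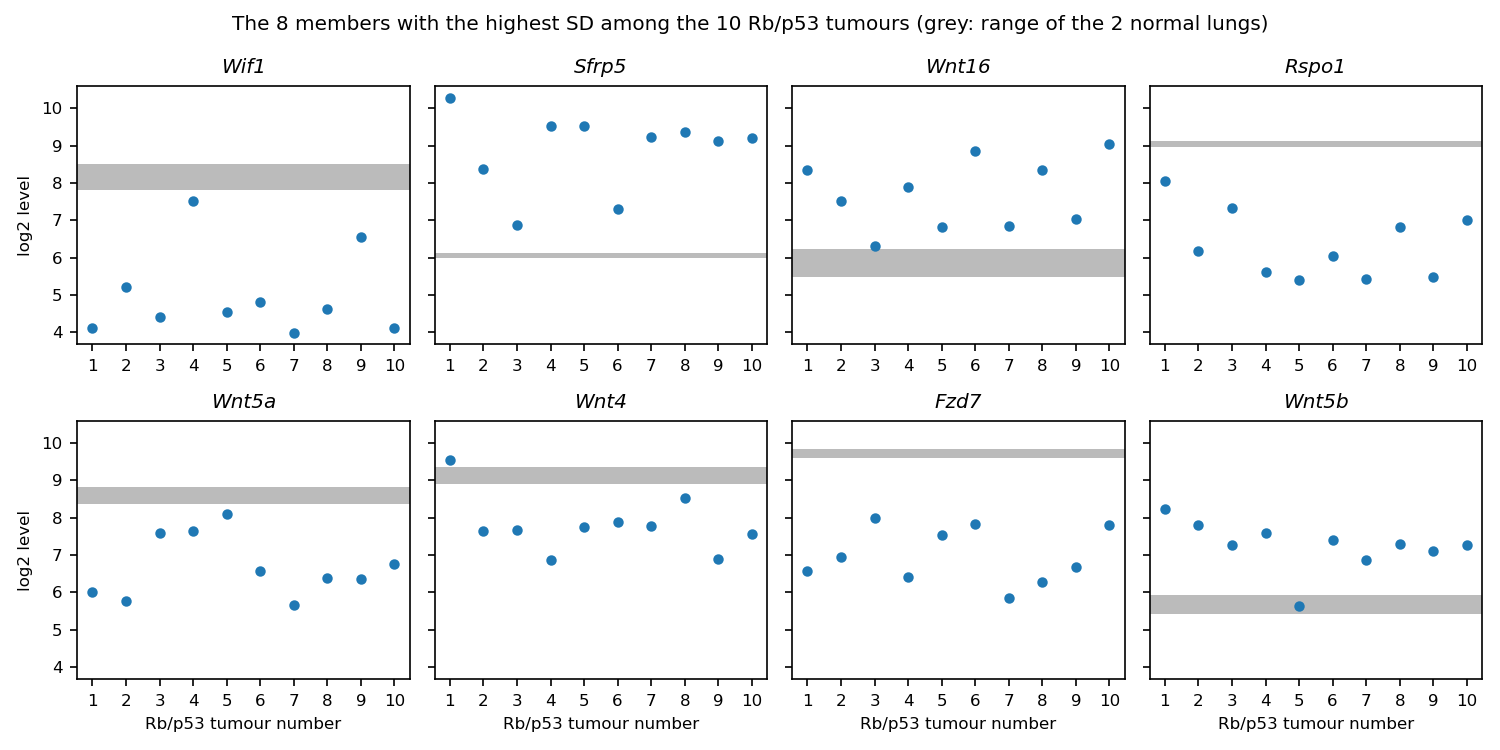
The log2 level of the 8 genes with the highest SD is plotted against the tumour number for the 10 Rb/p53 tumours, and the grey band spans the 2 normal lungs. Wif1 is high in tumours 4 and 9 alone, Sfrp5 is low in tumours 3 and 6, and Wnt4 is above the band in tumour 1.

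The variable genes did not move as 1 block. Tumour 1 was highest for Sfrp5, Rspo1, Wnt4 (9.56) and Wnt5b, and tumour 10 for Wnt16, Sfrp2 and Dkk2 (6.76). Tumours 4 and 9, high for Wif1, were also the highest for Lgr6, at 5.68 and 5.93, against 5.07 to 5.32 in the other 8. Among the 120 pairs of the 16 genes with an SD above 0.5, a family chosen after the data were seen, Fzd7 and Tcf7l2 ran closest, with Pearson r = 0.91 (p = 0.000650, adjusted p = 0.0780) and Spearman rho = 0.93 (p = 0.000300, adjusted p = 0.0360) by permutation test, two-sided, n = 10. Without tumours 3 and 6, the farthest from the median of Fzd7, r was 0.85. No other pair passed after adjustment over the 120, and 11 pairs had an unadjusted p under 0.05 for r.

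Fzd7 and Tcf7l2 both fell against normal lung, and their upstream stretches, printed as above, each held a TCF/LEF match, 130 and 14 bases before the start (for Tcf7l2 at the downstream of its 2 listed starts).
Fzd7 (chr1:59481897-59482146, plus strand): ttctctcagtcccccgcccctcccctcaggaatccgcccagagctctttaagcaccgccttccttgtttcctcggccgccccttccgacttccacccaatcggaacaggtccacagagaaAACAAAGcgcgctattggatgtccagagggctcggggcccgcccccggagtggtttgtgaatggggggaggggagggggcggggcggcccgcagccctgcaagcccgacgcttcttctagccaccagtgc
Tcf7l2 (chr19:55895071-55895320, plus strand): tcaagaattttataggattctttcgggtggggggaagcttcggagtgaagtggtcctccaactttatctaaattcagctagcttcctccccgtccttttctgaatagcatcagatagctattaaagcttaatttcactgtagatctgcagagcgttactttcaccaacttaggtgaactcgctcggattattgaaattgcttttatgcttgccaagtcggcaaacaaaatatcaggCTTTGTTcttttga
The 4 tumours highest for Fzd7, namely 3, 6, 10 and 5 (8.00, 7.82, 7.82 and 7.54), were also the 4 highest in the mean of the alveolar type 1 list (10.22, 10.03, 9.65 and 9.82, the other 6 at 8.25 to 9.26), the endothelial list (8.93, 8.89, 8.73 and 8.30, the others at 6.93 to 7.90) and the alveolar type 2 list (11.51, 11.65, 11.47 and 11.21, the others at 8.89 to 10.29). The same 4 tumours were also the 4 highest for the club cell list (10.45, 11.05, 11.58 and 10.38, the others at 8.64 to 10.13). They were the 4 lowest for the dividing cell genes (11.01, 10.71, 10.70 and 10.93, the others at 11.16 to 11.95). This order did not hold for every list. Tumour 4 stood above tumours 3 and 6 for fibroblast and smooth muscle (9.20, 9.15 and 9.07). It stood above tumours 5 and 6 for the mesothelial list (7.12, 7.08 and 6.87). The part of any of these lists in the shared course of Fzd7 and Tcf7l2 was not tested.

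**Figure D4:**
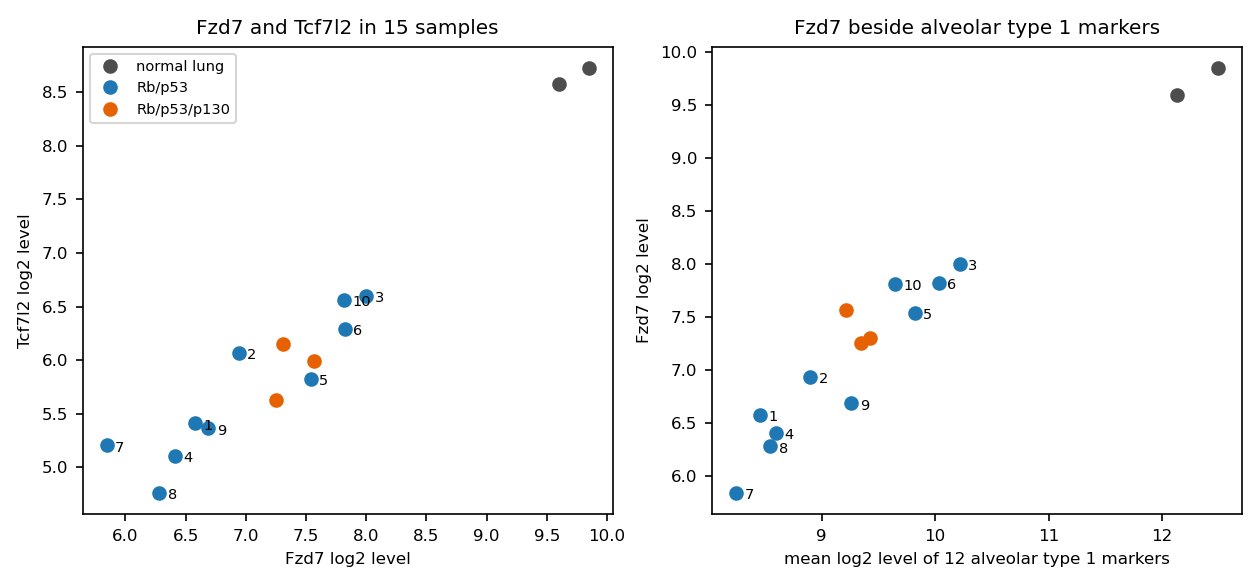
Left, the log2 level of Tcf7l2 is plotted against that of Fzd7 in the 15 samples, with the Rb/p53 tumours numbered. Right, Fzd7 is plotted against the mean log2 level of 12 alveolar type 1 markers in the same samples, and tumours 3, 5, 6 and 10 sit highest among the Rb/p53 tumours in both panels, apart from tumour 2 above tumour 5 for Tcf7l2.

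Axin2 was set against 23 other target genes across the 10 Rb/p53 tumours, to ask whether targets of beta-catenin vary together. Of the 23, 3 had an unadjusted p under 0.05 for r and 0 passed after adjustment, by permutation test. The closest were Ephb3, with r = 0.79 (p = 0.00769, adjusted p = 0.177) and rho = 0.83 (p = 0.00466, adjusted p = 0.107), Ascl2, with r = 0.69 (p = 0.0206, adjusted p = 0.237) and rho = 0.73 (p = 0.0211, adjusted p = 0.242), and Lef1, with r = 0.66 (p = 0.0338, adjusted p = 0.260) and rho = 0.65 (p = 0.0493, adjusted p = 0.378), all two-sided permutation tests with n = 10. Without tumours 3 and 8, the farthest from the median of Axin2, r was 0.87, 0.72 and 0.75 for these 3. The median r over the 23 was 0.20, and 18 were above 0. Of the target list 2 genes, Dkk1 among them, lay at the low end on all arrays. Correlations with such values cannot show whether targets vary together.

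Loss of p130 was read from the 3 Rb/p53/p130 tumours against the 10 Rb/p53 tumours. None of the 48 genes was called by limma, where 13 of 18193 genes, or 0.0715%, were (0.022% higher and 0.0495% lower), and 3 of 48 (6.25%) had an unadjusted p under 0.05, against 7.26% of all genes. These 3 were Wnt5a, Sfrp2 and Lgr6. Wnt5a was 1.66 ± 0.47 higher in log2 in the Rb/p53/p130 tumours (95% interval 0.65 to 2.67, limma adjusted p = 0.193). Tumours 11 and 12, at 8.76 and 8.70, lay above all Rb/p53 tumours, and tumour 13, at 7.58, just below the highest of them (8.09, 7.66 and 7.60 in tumours 5, 4 and 3). Another 2 probe sets of Wnt5a gave 1.18 ± 0.41 (adjusted p = 0.308) and 0.67 ± 0.23 (adjusted p = 0.316), and the last, with tumour means at the low end (4.60 and 4.61), 0.01 ± 0.11.

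Sfrp2 was 1.56 ± 0.46 higher in the Rb/p53/p130 tumours (interval 0.58 to 2.53, limma adjusted p = 0.216), with only tumour 13, at 7.74, above tumour 10 at 6.63. Of the fibroblast and smooth muscle list 0 of 20 genes were called by limma between the tumour genotypes, with a median difference of -0.37, and its part in the values of Sfrp2 was not tested. Lgr6 was 0.42 ± 0.18 lower (interval -0.81 to -0.02, adjusted p = 0.463) and was the only gene of the set whose tumour genotypes did not overlap (1.97% of all genes did not). Its Rb/p53/p130 values (4.74, 4.90 and 4.99) all lay at the low end, and the Rb/p53 median of 5.18 was close to it. The separation is therefore not shown to be above background. Another probe set of Lgr6 averaged 4.55 in Rb/p53 and 4.67 in Rb/p53/p130 tumours, both at the low end. Dkk2, an antagonist at the co-receptors, had a difference of 0.63 ± 0.34 (interval -0.09 to 1.35, adjusted p = 0.574). Intervals of the other genes were often wide, such as -1.98 to 0.54 for Sfrp5 and -0.81 to 0.35 for Axin2, so differences of that size are not excluded.

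**Figure D5:**
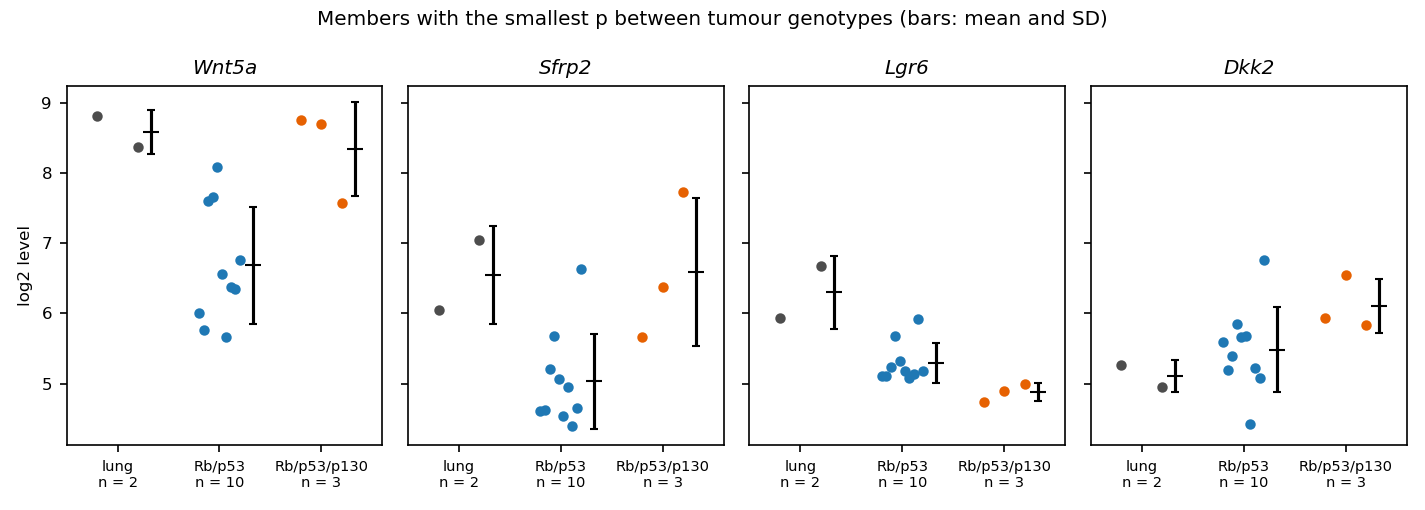
The log2 level of Wnt5a, Sfrp2, Lgr6 and Dkk2, the 4 genes with the smallest p between tumour genotypes, is plotted for every sample of normal lung (grey, n = 2), Rb/p53 tumours (blue, n = 10) and Rb/p53/p130 tumours (orange, n = 3), with black bars for mean and SD. The orange points are high for Wnt5a and Sfrp2, yet 1 and 2 of the 3 lie within the range of the blue ones.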

How the data were processed

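RNA was isolated with Trizol and amplified with a RiboAmp kit, per the labels' protocols. Each deposited column holds log2 values of 1 array, summarised by probe set with RMA (version not stated), per the submitters' processing notes. Because RMA equalises arrays, a shift common to the bulk of genes is lost, and amplification favours 3' ends of RNA. Batches are not given in the labels.

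After 64 controls were dropped from 45101 probe sets, 34945 of the rest named 1 gene symbol, 932 named several and 9160 had none here; 34741 were matched by gene ID to RefSeq names (GRCm38.p6). One fit held all 3 groups (limma 3.58.1 in R 4.3.3, lmFit and eBayes). P-values were adjusted by the Benjamini-Hochberg method across all 45037 probe sets, with calls at 0.05. Errors of differences are SE. Folds with the lower group at or below 5.05 are bounds. Correlations used 100000 permutations. The fit was tested on simulated data. The pathway set and lists were chosen with earlier results of these data known. By rule, values in every sample were given for the called genes of each role and for each role's most variable and brightest gene, and of each list the 2 called genes with the largest rise and the 2 with the deepest fall were named. Genes named beyond that rule were chosen after their values were seen. Upstream sequences are from RefSeq. Figures used matplotlib 3.10.9 in Python 3.11.15. Alternatives (scaling, centring, a filter on dim probe sets, the samples fitted, the prior, RNA integrity, the choice of probe set, leaving out arrays) are given in the closing section.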

Additional observations from a re-analysis of the deposited data

Results flagged for a closer look

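Among the 10 Rb/p53 tumours 2 of 48 genes had a sample standing apart by Dixon's test at the 95% level, a test that flags about 1 in 20 groups by chance. Wnt5b in tumour 5, at 5.64, lay 1.23 log2 units below the next tumour, which is 0.476 of the range of the 10. Wnt2b, a ligand of lung specification, in tumour 3, at 5.06, lay 0.33 above the next, 0.573 of its range, close to the low end of the arrays.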

How the results depend on the processing

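With normal lung represented by 2 arrays, leaving out 1 array gave 1 to 4 genes higher and 12 to 20 lower in Rb/p53 tumours, the fewest without a lung. In Rb/p53/p130 tumours 10 to 13 were lower. Under the Gapdh covariate Rb/p53 tumours had 1 gene higher, Wnt6, and 2 lower; Rb/p53/p130 tumours had 2 lower, and called genes changed sign: Fzd6 (0.17 and 0.20 in the 2 genotypes), Wnt16 (-0.58) and Rspo1 (0.015 in Rb/p53/p130 tumours); the covariate differs between lung and tumour, and the cause was not tested. Another probe set of Lrp6, added after seeing the data, gave 0.32. Without probe sets with suffixes s, x and a, which leaves 44 genes, 2 were higher in Rb/p53 tumours. In Rb/p53/p130 tumours 1 was higher and 8 lower of the 22 genes brighter than the median probe set, 4 were higher with the compared groups alone (Dkk2, Fzd3, Sfrp5 and Wnt5b) and 19 lower, Axin2, Fzd5, Tcf7l1, Wnt1 and Wnt4 in addition, and 1, Wnt5b, with the mean of all probe sets; the cause was not tested for the last 2. Quantile normalisation, median centring, a trended and robust prior and another choice of the brightest probe set left every call of these genes against normal lung in place and added up to 4; the mean of all probe sets lost Lrp6 in Rb/p53 and Fzd6 in Rb/p53/p130 tumours. None of the 48 was called between tumour genotypes under any alternative run. Samples share only a number between Rb/p53 tumours 1 and 2 and lungs 1 and 2, and the fit with the replicate number as a block called 3 higher and 13 lower, 16 of the 23; no pairing follows from it. The median r of Axin2 with targets was 0.20 and, without its 2 end tumours, 0.17.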
